A study of Mus musculus with 12 samples.

Results

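The genes described here are the 3 Grainyhead-like transcription factors (*Grhl1*, *Grhl2* and *Grhl3*), the adhesion genes *Cdh1* and *Epcam*, the splicing factors *Esrp1* and *Esrp2*, and the membrane protease gene *St14* with its inhibitors *Spint1* and *Spint2*, which makes 10 of the 35580 genes covered by the tables. *Grhl2* was picked by its values in these same libraries, because its difference between CIDEA KO and WT changed with time. Its levels and fold changes are therefore a description, and no test is given for it. The other 9 genes were taken as its relatives and as genes of the epithelial programme that Grainyhead-like factors are known to serve.

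RNA was sequenced from mouse R1 embryonic stem cells (ESCs), here called 0 h, and from spheroids grown from them for 24 h and 48 h, with 2 libraries for each of the 6 groups of genotype and time and 12 in all. WT cells were the parental R1 line, and CIDEA KO cells (Cidea -/-) carried a CRISPR-Cas9 deletion at the locus of *Cidea*, the gene of a lipid droplet protein. All KO libraries came from 1 subclone, so loss of *Cidea* and other properties of that clone cannot be told apart. ESCs were kept in 10% FBS with LIF, and spheroids in 15% FBS without LIF in growth factor-reduced Matrigel, so the step from 0 h to 24 h changed medium and matrix together. The labels give the spheroids as embedded in the gel, while the study's methods describe seeding on top of a Matrigel coat for molecular work.

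Grainyhead-like factors bind DNA and switch on genes of cell adhesion and barrier formation in surface epithelia, and GRHL2 is known to open enhancers of epithelial genes as mouse pluripotent cells leave the naive state. E-cadherin and EPCAM hold neighbouring epithelial cells together, ESRP proteins bind RNA and impose the splicing pattern of epithelia, and matriptase, the product of *St14*, cleaves substrates at the epithelial cell surface under the control of Kunitz-type inhibitors. The epiblast forms a polarised epithelium around the time of implantation, the step that the spheroids model.

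Depth was 29 to 38.5 M estimated counts per library, and the lowest estimated count of any of the 10 genes in any library was 144, for *Grhl1*. *Cidea* had between 20 and 117 estimated counts in the 6 WT libraries and was listed at 0 in all 6 KO libraries. The first KO library at 24 h stood apart, with 15577 genes at 1 or more counts against 17634 to 19825 in the other 11. Without it, the same 3 of the 9 genes other than *Grhl2* were called (an adjusted p under 0.05) from 0 h to 24 h in KO, the same 5 from 24 h to 48 h, and 0 for KO against WT at 24 h, and the *Grhl2* genotype difference at 24 h was -0.21 ± 0.12 on the log2 scale. The 6 pluripotency markers (*Pou5f1*, *Sox2*, *Nanog*, *Zfp42*, *Tdgf1*, *Utf1*) summed to between 2500 and 3978 TPM (a transcript's share of all transcripts, scaled for transcript length and depth), highest at 0 h in each genotype. At 0 h the KO sums (3789 and 3978 TPM) lay above the WT ones (3521 and 3601 TPM). *Zfp42* was called higher in KO by edgeR at 0 h (0.31 ± 0.07 on the log2 scale, adjusted p = 0.036). It was also called at 24 h (0.33 ± 0.07, adjusted p = 0.022). Markers of other cell types summed to at most 24.8 TPM for any list, but some sums differed between times or genotypes. The 6 trophectoderm genes, at 0 h mostly *Tfap2c*, summed to 22.3 and 24.0 TPM in WT and 14.8 and 17.1 TPM in KO at 0 h, and to 7.37 to 10.4 TPM at 48 h. The 5 primitive streak and mesoderm genes, mostly *Eomes*, summed to 4.84 to 6.67 TPM at 0 h and 11.3 to 13.6 TPM at 48 h over both genotypes. The part of such cells in the results was not tested. Over all libraries the sum was 6.90 to 11.98 TPM for 6 primitive endoderm genes, 3.86 to 16.4 for 2 neural genes, 6.88 to 24.8 for 6 fibroblast genes, mostly *Thy1*, and 0 to 0.558 for the 3 surface ectoderm genes *Trp63*, *Krt5* and *Krt14*.

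*Grhl2* (chr15:37233036-37363569 on GRCm38, plus strand) was the Grainyhead-like gene with the widest range of levels. In WT it stood at 6.39 and 7.47 TPM at 0 h, at 38.8 and 37.7 TPM at 24 h, and at 41.5 and 41.7 TPM at 48 h. In CIDEA KO it stood at 3.49 and 2.44 TPM at 0 h, at 40.4 and 32.2 TPM at 24 h, and at 34.0 and 42.6 TPM at 48 h. Both KO libraries thus lay below both WT libraries at 0 h, whereas at 24 h and 48 h the KO libraries lay on either side of the WT ones in TPM. In CPM (counts scaled for depth only, the scale of the fit) the genotypes did not overlap at 24 h, with 97.7 and 86.3 in KO below 98.4 and 100.7 in WT, and at 48 h KO again lay on either side. In bulk RNA, fewer cells with a transcript and less of it per cell cannot be told apart.

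On the log2 scale the change of *Grhl2* from 0 h to 24 h was 2.34 ± 0.11 in WT and 3.46 ± 0.12 in KO (estimate ± standard error from the fit over all genes, n = 2 libraries per group), and from 24 h to 48 h it was 0.13 ± 0.10 and 0.27 ± 0.10. The KO to WT difference was -1.23 ± 0.11 at 0 h, which is 2.35-fold lower in KO, -0.11 ± 0.10 at 24 h and 0.02 ± 0.10 at 48 h. These are the values by which the gene was picked: the genotype difference moved by 1.12 ± 0.15 between 0 h and 24 h and by 1.26 ± 0.15 between 0 h and 48 h. Over all genes tested, 0.0115%, 0.0402% and, for 48 h against 24 h, 0.023% were called for such a change of the genotype difference in either direction. Apart from *Grhl2*, which was chosen by this contrast and for which no call is given, none of the 10 genes was among them.

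**Figure D1:**
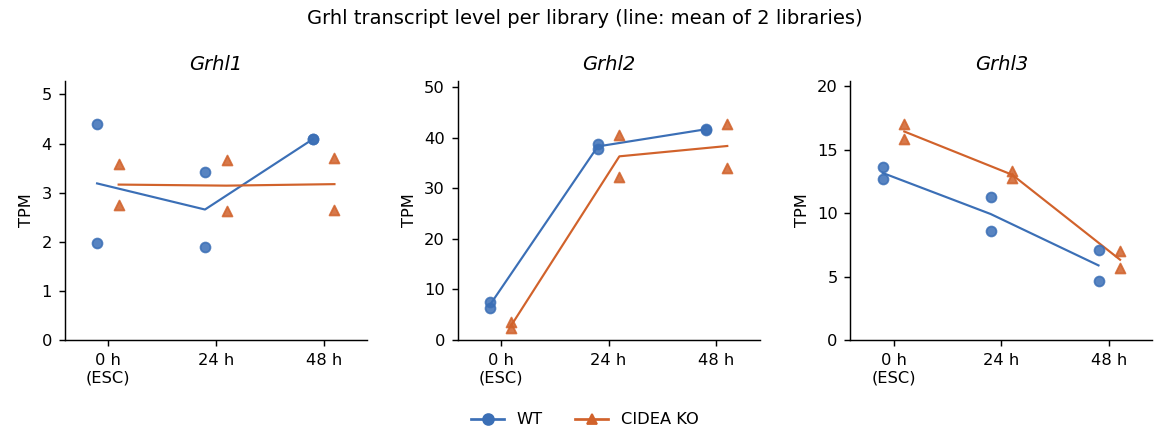
TPM (y axis, linear from 0) of *Grhl1*, *Grhl2* and *Grhl3* in each library by time (x axis), WT as circles and CIDEA KO as triangles, with lines through the means of 2 libraries. *Grhl2* lies between 2.44 and 7.47 TPM at 0 h and between 32.2 and 42.6 TPM afterwards, while *Grhl3* falls and *Grhl1* stays at or under 4.39 TPM.

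*Grhl3* (chr4:135541888-135573630, minus strand), a relative best known from skin barrier formation, took the opposite course. WT libraries held 13.6 and 12.7 TPM at 0 h, 11.3 and 8.55 TPM at 24 h, and 4.66 and 7.10 TPM at 48 h. KO libraries held 15.9 and 17.0 TPM, then 12.8 and 13.3 TPM, then 5.67 and 6.98 TPM. In both genotypes the 48 h libraries lay below all libraries of the earlier times. *Grhl3* fell by 1.18 ± 0.21 on the log2 scale from 0 h to 48 h in WT (adjusted p = 0.00024, edgeR quasi-likelihood test with Benjamini-Hochberg adjustment over all 17424 genes tested, the test behind every adjusted p here) and by 1.33 ± 0.21 in KO (adjusted p = 5.5e-05). Most of this came after 24 h, with a log2 change from 24 h to 48 h of -0.71 ± 0.21 in WT (adjusted p = 0.036) and -0.96 ± 0.21 in KO (adjusted p = 0.0038). The WT step was not called without the first WT library at 24 h (adjusted p = 0.4) or at 48 h (adjusted p = 0.46), nor the KO step without the first KO library at 48 h (adjusted p = 0.077).

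*Grhl1* (chr12:24572283-24617391, plus strand), another family member that acts in the epidermis and in hair anchorage, was low and did not pass the test in any comparison. Its levels were 1.89 to 4.39 TPM over all libraries, and replicates differed as much as the groups did: the WT libraries at 0 h held 1.98 and 4.39 TPM. With standard errors near 0.37 on the log2 scale, even a 2-fold change of *Grhl1* could have gone uncalled. *Grhl2* made up 29.01% and 30.4% of the summed TPM of the 3 factors in the WT libraries at 0 h, and 15.2% and 10.98% in the KO ones. *Grhl3* supplied the largest share there, 51.6% to 62.0% in WT and 69.2% to 76.6% in KO. The summed level at 0 h was 22.0 and 24.5 TPM in WT and 22.9 and 22.2 TPM in KO, so the genotypes overlapped in the sum while they did not in *Grhl2*. At 24 h and 48 h *Grhl2* was the main factor in every library, with 66.9% to 82.6% of the sum.

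The genes whose pattern over the 12 libraries was most like that of *Grhl2*, by Pearson correlation of log2 CPM among 11980 genes, were *Lin28a* (0.995), *Col18a1* (0.992), *Otx2* (0.99), *Tnfrsf19* (0.989) and *Fgf15* (0.988). They are given as a description, since the libraries share their groups. As they were picked for likeness to *Grhl2*, a lower KO level at 0 h in them is no separate evidence. *Otx2*, a homeobox factor of the primed epiblast, stood at a mean of 45.1 TPM in WT and 23.1 TPM in KO at 0 h and at 160 and 163 TPM at 48 h. *Fgf15*, a growth factor gene, stood at 5.45 and 3.31 TPM at 0 h and at 39.6 and 47.0 TPM at 48 h. Among the other 9 genes the same measure was highest for *Esrp1* (0.925), *Epcam* (0.909) and *Cdh1* (0.884). It was 0.551 for *Esrp2*, between -0.381 and 0.17 for *Grhl1*, *St14*, *Spint1* and *Spint2*, and -0.746 for *Grhl3*.

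Of the 9 genes other than *Grhl2*, 3 rose from 0 h to 24 h in WT, where 7.54% of all genes tested were called higher, and none fell, where 7.47% were called lower. The same 3, *Cdh1*, *Epcam* and *Esrp1*, rose over this step in KO and none fell, against 9.24% higher and 9.33% lower over all genes. From 24 h to 48 h, 4 rose and 1 fell in WT (3.28% higher and 4.86% lower over all genes) and likewise in KO (4.57% and 5.37%). Over the whole course from 0 h to 48 h, 4 rose and 1 fell in WT (11.1% and 12.5% over all genes), while 5 rose and 1 fell in KO (12.1% and 12.8%). The median log2 change of the 9 over that course was 0.31 in WT and 0.46 in KO, beside 0.01 to 0.02 over all genes tested. The step from 24 h to 48 h was the least stable of these counts, with 3 to 6 genes called in WT and 2 to 5 in KO over 20 other settings of the analysis.

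**Figure D2:**
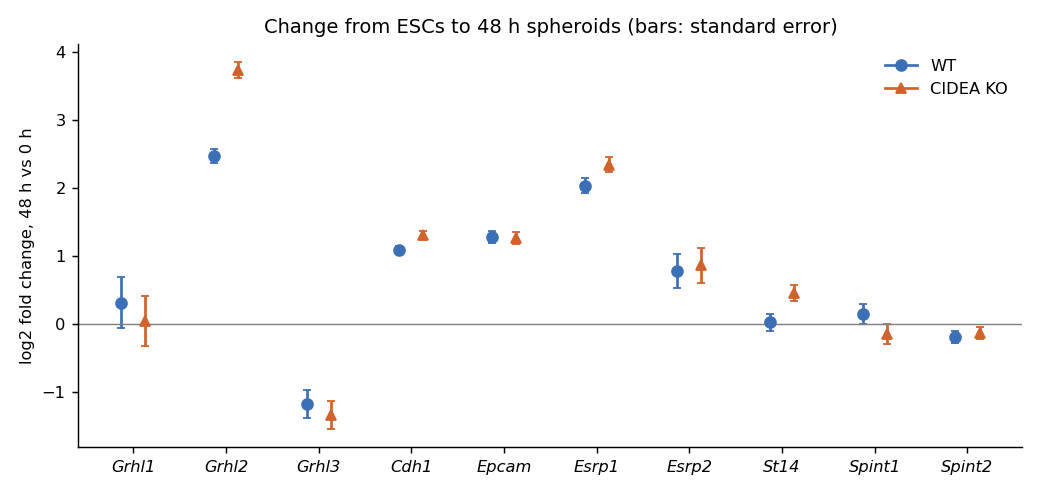
log2 fold change (y axis) from ESCs at 0 h to spheroids at 48 h for each of the 10 genes (x axis), WT as circles and CIDEA KO as triangles, with bars for the standard error of the fit (2 libraries per group). *Grhl2*, *Esrp1*, *Epcam* and *Cdh1* lie above 1 in both genotypes and *Grhl3* lies below -1.

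*Cdh1* (chr8:106603351-106670246, plus strand), the gene of E-cadherin, rose at each step in both genotypes and with little spread. WT libraries held 118 and 118 TPM at 0 h, 196 and 206 TPM at 24 h, and 260 and 257 TPM at 48 h. KO libraries held 126 and 125 TPM, 205 and 226 TPM, and 304 and 304 TPM. No library overlapped with those of another time point of its genotype. From 0 h to 24 h the log2 change was 0.66 ± 0.06 in WT (adjusted p = 1e-07) and 0.74 ± 0.06 in KO (adjusted p = 1.6e-08), and over the whole course it was 1.10 ± 0.06 and 1.31 ± 0.06 (adjusted p = 4e-11 and 2e-12).

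*Epcam* (chr17:87635979-87651129, plus strand), a cell surface glycoprotein gene of epithelia that ESCs also express, went the same way. Its level was 56.7 and 60.0 TPM in WT and 61.6 and 64.1 TPM in KO at 0 h, and 103 and 107 TPM in WT and 123 and 113 TPM in KO at 24 h. At 48 h it was 134 and 154 TPM in WT and 148 and 145 TPM in KO, above every library of the earlier times. The log2 change from 0 h to 48 h was 1.28 ± 0.09 in WT (adjusted p = 2e-09) and 1.27 ± 0.09 in KO (adjusted p = 1.8e-09). The KO step after 24 h (0.40 ± 0.09, adjusted p = 0.0055) was not called without the first KO library at 48 h (adjusted p = 0.074).

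*Esrp1* (chr4:11331933-11386783, minus strand), the gene of an RNA-binding protein that directs epithelial splicing, rose at each step in both genotypes, with larger estimates than either adhesion gene. WT libraries held 9.74 and 8.73 TPM at 0 h, 24.6 and 22.3 TPM at 24 h, and 39.5 and 41.0 TPM at 48 h. KO libraries held 7.48 and 8.06 TPM, 18.7 and 21.4 TPM, and 39.2 and 36.7 TPM. In both genotypes the 3 times were separate, and at 0 h and 24 h both KO libraries lay below both WT libraries. At 48 h they did so in TPM by a small margin and overlapped in CPM (92.2 and 84.7 in KO, 88.2 and 91.8 in WT), with a KO to WT difference of -0.02 ± 0.11 on the log2 scale (adjusted p = 1). The log2 change was 1.24 ± 0.11 from 0 h to 24 h and 2.03 ± 0.11 from 0 h to 48 h in WT (adjusted p = 1.1e-07 and 5.4e-11), which is a 4.09-fold rise. In KO it was 1.36 ± 0.11 and 2.34 ± 0.11 (adjusted p = 3.1e-08 and 5.9e-12), a 5.07-fold rise. Whether the rises differed between the genotypes is given as a difference only, 0.31 ± 0.15 on the log2 scale over the whole course.

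*Esrp2* (chr8:106130319-106136974, minus strand), the paralog with a like role, was lower and more variable, at 3.09 to 11.7 TPM. Its WT levels were 3.31 and 8.12 TPM at 0 h, 3.09 and 4.23 TPM at 24 h, and 11.5 and 6.93 TPM at 48 h, so that 0 h and 48 h overlapped in TPM. In CPM these WT times did not overlap, with 6.39 and 9.80 at 0 h and 14.2 and 13.6 at 48 h. Its KO levels were 3.38 and 4.15 TPM, 3.81 and 6.13 TPM, and 5.73 and 11.7 TPM. The count-based log2 change from 0 h to 48 h passed the test in WT (0.78 ± 0.25, adjusted p = 0.028) and in KO (0.86 ± 0.25, adjusted p = 0.015), as did the WT step from 24 h to 48 h (0.87 ± 0.25, adjusted p = 0.037). These 3 calls were lost in 7, 6 and 12 of 20 other settings. The WT call over the whole course was lost without the first library at 0 h or either library at 48 h (adjusted p = 0.097 to 0.3), the KO call without either library at 0 h or the second at 48 h (adjusted p = 0.079 to 0.15), and the WT step without any 1 of its 4 libraries (adjusted p = 0.13 to 0.29) or any 1 KO library at 0 h or 48 h (adjusted p = 0.06 to 0.063). *Esrp1* supplied 51.8% to 88.8% of the summed TPM of the pair.

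**Figure D3:**
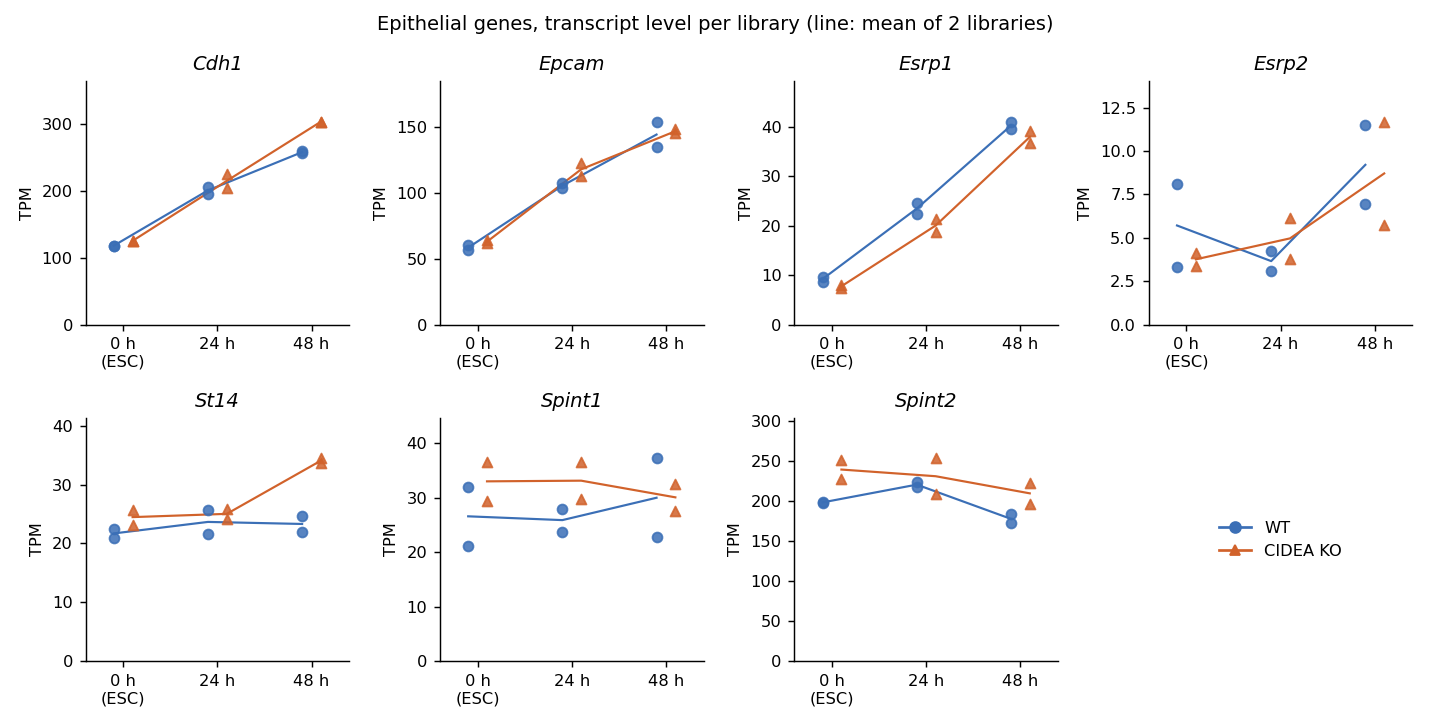
TPM (y axes, linear from 0) of *Cdh1*, *Epcam*, *Esrp1*, *Esrp2*, *St14*, *Spint1* and *Spint2* in each library by time (x axes), WT as circles and CIDEA KO as triangles, with lines through the means of 2 libraries. *Cdh1*, *Epcam* and *Esrp1* rise with time in both genotypes, and *St14* in KO at 48 h (34.4 and 33.7 TPM) lies above all other *St14* values.

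Transcripts that ESRP proteins are known to splice were described as well, and a link of their forms to *Esrp1* or *Esrp2* levels was not tested. *Enah*, the gene of an actin regulator, has a cassette exon of 63 bases that epithelial cells include (chr1:181911597-181911659 on GRCm38, minus strand). The exon is shown in capitals with 20 bases of its neighbouring exons in lower case, followed by the same junction without it, both read from GENCODE M21 transcripts, because the 2 forms differ by exactly these letters.
Enah with the exon: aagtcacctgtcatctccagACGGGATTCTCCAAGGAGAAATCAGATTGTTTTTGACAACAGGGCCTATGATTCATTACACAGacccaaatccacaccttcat
Enah without the exon: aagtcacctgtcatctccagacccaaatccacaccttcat

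The exon-containing form of *Enah* had a larger share at each later time in both genotypes. It made up 19.7% and 22.0% of *Enah* TPM over the informative transcripts in WT at 0 h, 25.9% and 35.6% at 24 h, and 47.6% and 40.2% at 48 h. In KO it made up 27.3% and 24.9%, 36.5% and 30.2%, and 49.7% and 47.8%. The 3 times did not overlap within either genotype, and at 0 h both KO libraries lay above both WT libraries, the reverse of their order in *Esrp1*. Only 1 annotated transcript with the exon was in the tables, against 8 without it, so the share rests on the assignment of reads to transcripts by Kallisto, and with 2 libraries per group an exact two-sided permutation test cannot go below p = 0.333, so none is given. The estimated counts behind it were 3321 to 9878 for the exon-containing form and 11409 to 22257 for the others.

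Among other genes with known ESRP-dependent forms, the *Ctnnd1* share separated by time in KO only, by a small margin between 0 h and 24 h. *Fgfr2* was low, and *Cd44* was too low to read. Whether the *Ctnnd1* forms moved with ESRP levels was not tested. Transcripts of *Ctnnd1*, the gene of p120-catenin, that begin at the upstream start codon held 63.4% to 76.4% of the TPM of upstream-start and downstream-start transcripts together in WT, where the times overlapped. In KO they held 73.3% and 72.1% at 0 h, 74.1% and 76.6% at 24 h, and 60.8% and 67.4% at 48 h, so that the times did not overlap and both 48 h libraries lay below the other 4. The WT libraries at 0 h alone lay at 76.4% and 63.4%, further apart than the KO libraries of 0 h and 24 h. A difference in course between the genotypes was not tested. For *Fgfr2*, a fibroblast growth factor receptor with mutually exclusive IIIb and IIIc exons, transcripts with the epithelial IIIb exon reached at most 1.44 TPM and those with IIIc at most 4.81 TPM. At 0 h neither form had more than 50 estimated counts, too few for a share. At 24 h and 48 h IIIc had the larger estimated count in every library. The IIIb share was 5.04% and 21.2% in WT and 0% and 8.54% in KO at 24 h. At 48 h it was 12.8% and 37.2% in WT and 3.68% and 10.1% in KO, from 9 to 104 IIIb counts. *Cd44*, whose variable exons are ESRP targets, was at 0 to 1.28 TPM. Among 8 other splicing regulators, 7 were matched and tested, and 2 were called higher and 1 lower at 48 h against 0 h in each genotype, beside 11.1% higher and 12.5% lower over all genes in WT and 12.1% and 12.8% in KO; 1 of 7 lower is near that background. *Ptbp2*, a neuronal splicing repressor, rose by 1.33 ± 0.13 in WT and 1.41 ± 0.13 in KO on the log2 scale, and *Ptbp1* by 0.30 ± 0.06 and 0.31 ± 0.06. *Rbm47* was lower by count in WT (-0.64 ± 0.19) and in KO (-1.03 ± 0.20), though its mean TPM in WT was 12.7 at 0 h and 12.9 at 48 h.

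**Figure D4:**
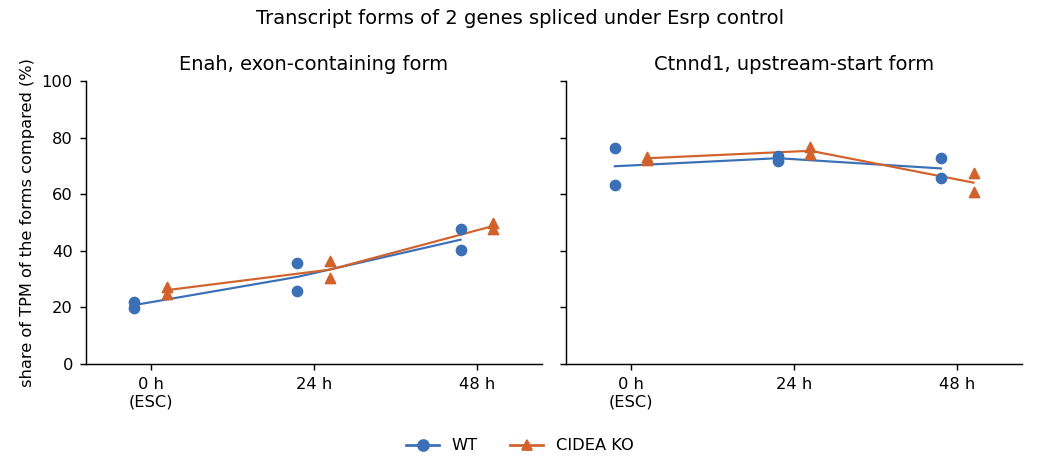
Share in percent (y axis) of the exon-containing form of *Enah* (left) and of the upstream-start form of *Ctnnd1* (right) in the summed TPM of the 2 forms compared in each library by time (x axis), WT as circles and CIDEA KO as triangles, with lines through the means of 2 libraries. The *Enah* share goes from between 19.7% and 27.3% at 0 h to between 40.2% and 49.7% at 48 h, and the *Ctnnd1* share lies between 60.8% and 76.6%, lowest in KO at 48 h.

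*St14* (chr9:31089402-31131853, minus strand), the matriptase gene, was not called over time in WT and rose late in KO. WT libraries held 22.5 and 20.95 TPM at 0 h, 25.7 and 21.7 TPM at 24 h, and 22.0 and 24.6 TPM at 48 h. KO libraries held 25.7 and 23.2 TPM, 25.9 and 24.2 TPM, and 34.4 and 33.7 TPM, so that both KO libraries at 48 h lay above the other 10. In KO the log2 change was 0.48 ± 0.12 from 24 h to 48 h (adjusted p = 0.011) and 0.46 ± 0.12 from 0 h to 48 h (adjusted p = 0.0067), whereas in WT it was 0.02 ± 0.12 over the whole course (adjusted p = 0.94). A call in 1 genotype alone does not show that the courses differed. The KO minus WT difference between these log2 changes, not tested, was 0.435 ± 0.168 over the whole course and 0.36 ± 0.168 after 24 h. The KO step after 24 h was not called without the first (adjusted p = 0.053) or the second KO library at 48 h (adjusted p = 0.092), nor the whole course without the second KO library at 0 h (adjusted p = 0.11) or at 48 h (adjusted p = 0.06).

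The inhibitor genes showed no call over time in either genotype. *Spint2* (chr7:29256323-29281912, minus strand) was the more abundant, at 199 and 198 TPM in WT and 228 and 251 TPM in KO at 0 h, 224 and 218 TPM against 209 and 254 TPM at 24 h, and 172 and 184 TPM against 196 and 223 TPM at 48 h. Its WT change from 24 h to 48 h was -0.28 ± 0.09 on the log2 scale (adjusted p = 0.056) and was called in 8 of 20 other settings. *Spint1* (chr2:119237362-119249527, plus strand) lay between 21.2 and 37.2 TPM, with the widest gap within 1 group, 37.2 and 22.8 TPM in WT at 48 h. *Spint1* and *Spint2* together had 8.38 to 11.3 times the TPM of *St14* in the WT libraries and 9.48 to 12.1 times in the KO libraries at 0 h and 24 h. At 48 h the ratio was 6.50 and 7.60 in KO, below the other 10 libraries.

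Between the genotypes, none of the 9 genes was called at 0 h, where 0.275% of all genes were called higher in KO and 0.987% lower. Unadjusted p was under 0.05 for 3 of them in edgeR (*Esrp1*, *Spint1* and *Spint2*), and DESeq2 called 0. *Esrp1* was lower in KO by estimate (-0.34 ± 0.11, adjusted p = 0.23), and *Spint1* (0.40 ± 0.15, adjusted p = 0.31) and *Spint2* (0.22 ± 0.09, adjusted p = 0.36) were higher by estimate. None was called at 24 h either (0.448% of all genes higher and 1.02% lower), with unadjusted p under 0.05 for 1 gene in edgeR, *Spint1* (0.35 ± 0.15, adjusted p = 0.34), and 0 calls by DESeq2. Without the second KO library at 24 h, *Spint1* was called higher in KO (0.53, adjusted p = 0.024), a fit in which the KO group is the library with few detected genes alone.

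At 48 h, 2 of the 9 genes were called higher in KO and none lower, beside 0.195% higher and 0.476% lower over all genes. *St14* was 1.48-fold higher (0.56 ± 0.12 on the log2 scale, adjusted p = 0.03). That call was lost in 6 of 20 other settings, among them the fits without either KO library at 48 h (adjusted p = 0.11 and 0.27) or the first WT library at 48 h (adjusted p = 0.43), while the estimate stayed between 0.43 and 0.71. *Cdh1* was 1.19-fold higher (0.25 ± 0.06, adjusted p = 0.05). Its call sat at the threshold and was lost in 17 of 20 other settings, including the fits without any 1 library other than those of KO at 24 h (adjusted p = 0.073 to 0.33), with estimates of 0.23 to 0.27. The other 7 genes had estimates between -0.32 (*Grhl1*) and 0.28 (*Spint2*) and were not called.

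**Figure D5:**
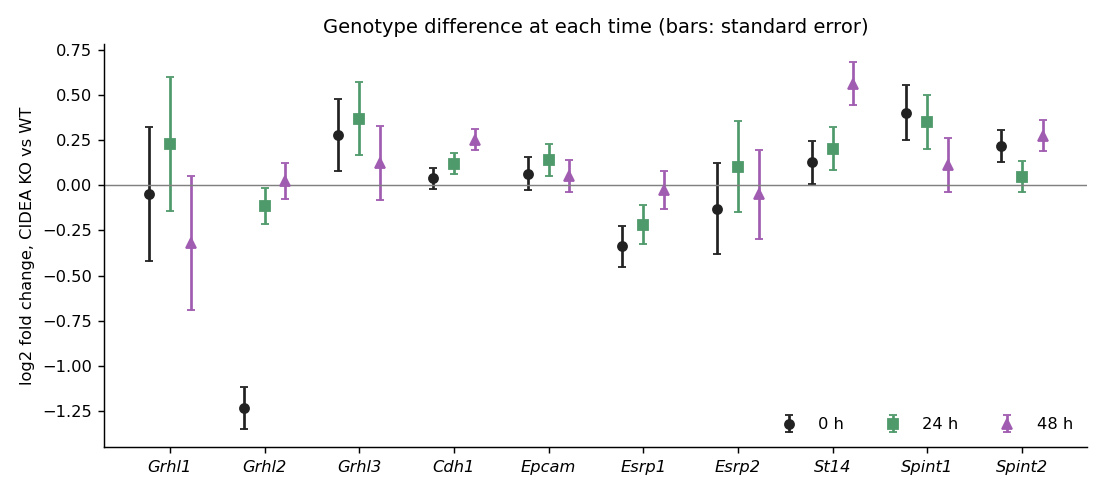
log2 fold change of CIDEA KO against WT (y axis) at 0 h (circles), 24 h (squares) and 48 h (triangles) for each of the 10 genes (x axis), with bars for the standard error of the fit (2 libraries per group). *Grhl2* at 0 h (-1.23) is the 1 value beyond 0.6 in either direction, and *St14* at 48 h (0.56) is the next in size.

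A wider list of 23 epithelial genes was mostly higher at 48 h, as were the adhesion genes and *Esrp1*. At 48 h against 0 h, 13 were called higher and 1 lower in WT, and 15 higher and 1 lower in KO, beside 11.1% higher and 12.5% lower over all genes in WT and 12.1% and 12.8% in KO, with a median log2 change of 1.54 and 1.66 beside 0.01 to 0.02 over all genes. *Prom2*, a membrane protein gene of epithelial protrusions, went from a mean of 0.09 TPM to 3.33 TPM in WT and 2.02 TPM in KO. *Cldn7*, a tight junction claudin, went from 8.06 to 31.3 TPM in WT and from 10.5 to 36.4 TPM in KO. *Tmprss2*, a membrane protease gene, was listed at 0 in every library at 0 h and had a mean of 0.41 TPM in WT (27 and 36 estimated counts) and 1.76 TPM in KO (71 and 16) at 48 h; both medians are the same with this gene set to the bound that a floor of 3 counts per library gives. The gene called lower was *Cldn4*, another claudin, with log2 changes of -0.85 ± 0.14 and -0.71 ± 0.14. *Cgn*, the gene of the tight junction protein cingulin, was the 1 gene of this list called between genotypes: KO was lower by 0.72 ± 0.13 at 0 h (adjusted p = 0.0061, means of 5.79 and 8.69 TPM) and by 0.54 ± 0.13 at 24 h (adjusted p = 0.038), and the difference was -0.11 ± 0.13 at 48 h (adjusted p = 1).

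Among 9 partners of E-cadherin at adherens junctions, 1 was called higher and 4 lower at 48 h against 0 h in WT, and 1 higher and 3 lower in KO, beside 11.1% higher and 12.5% lower over all genes in WT and 12.1% and 12.8% in KO. *Cdh2*, the gene of N-cadherin, was the one that rose, from a mean of 3.35 to 7.82 TPM in WT and from 3.01 to 7.01 TPM in KO. *Cdh1* kept a level 31.1 to 86.6 times that of *Cdh2* in every library. *Ctnna1* and *Vcl*, which link the junction to actin, fell by 0.69 ± 0.06 and 0.44 ± 0.10 in WT and by 0.71 ± 0.06 and 0.66 ± 0.10 in KO on the log2 scale.

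Of 12 mesenchymal genes, factors that drive the epithelial to mesenchymal transition or mark its outcome, 11 were tested and none was called higher at 48 h against 0 h in either genotype, while 4 were called lower in WT and 5 in KO. Over all genes 11.1% were higher and 12.5% lower in WT and 12.1% and 12.8% in KO, so a count of 0 higher among 11 is near the background. *Vim*, the gene of the intermediate filament vimentin, fell by 1.75 ± 0.08 in WT and 1.55 ± 0.08 in KO, *Zeb1*, a repressor of *Cdh1*, by 1.48 ± 0.24 and 2.06 ± 0.24, and *Fn1*, the fibronectin gene, by 1.33 ± 0.14 and 1.30 ± 0.14. *Vim* was also the 1 gene of the list called between genotypes, with KO lower by 0.54 ± 0.08 at 0 h (adjusted p = 0.001, means of 159 and 222 TPM). From 0 h to 24 h, 1 gene of the list was called higher and 3 lower in KO (9.24% and 9.33% over all genes). In WT, 0 were called higher and 2 lower over that step (7.54% and 7.47%). Mean *Zeb1* at 0 h, 24 h and 48 h was 7.7, 15.5 and 2.3 TPM in WT and 8.3, 4.5 and 2.3 TPM in KO. The highest single library, at 26.6 TPM, was among those of WT at 24 h. By count, *Zeb1* was not called between genotypes at 24 h (-0.08 ± 0.23 on the log2 scale, adjusted p = 0.92). *Cdh2*, which rose, was counted with the adherens junction partners and not here.

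Of 9 partners and substrates of matriptase, 7 were tested, and 2 were called higher and 1 lower at 48 h against 0 h in each genotype, beside 11.1% higher and 12.5% lower over all genes in WT and 12.1% and 12.8% in KO; 1 of 7 lower is near that background. *Prss8*, the gene of the protease prostasin, rose by 1.71 ± 0.41 in WT and 1.97 ± 0.42 in KO, and *Hpn*, another membrane protease gene, by 0.85 ± 0.25 and 1.52 ± 0.26. *F2rl1*, the gene of a protease-activated receptor, fell by 0.91 ± 0.11 and 0.92 ± 0.11. None of the list was called between genotypes. Of the 3 other CP2 family factors, the relatives of Grainyhead-like proteins, *Tfcp2l1*, a naive pluripotency factor, fell from a mean of 66.9 TPM in both genotypes to 6.23 TPM in WT and 5.01 TPM in KO, and *Tfcp2* and *Ubp1* were not called at 48 h against 0 h.

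The transcripts and promoters of the 10 genes were described without a test. *Grhl3* and *Epcam* had 1 transcript each in the tables. Most of the level came from 1 transcript in *Cdh1* (94.3% or more) and *Spint2* (71.0% to 82.9%), whereas the leading *Grhl2* transcript held 44.0% to 84.2% and the level of *Esrp1* was divided among several coding forms. Promoter sequences of 300 bases (RefSeq, GRCm38.p6) were matched for 5 of the 10 genes, 6 promoters in all. The 5 were *Grhl1*, *Grhl3*, *Epcam*, *Spint1* and *Spint2*, so *Grhl2*, *Cdh1*, *Esrp1*, *Esrp2* and *St14* were not looked at. The Grainyhead motif AACCGGTT and its looser form AACNNGTT, both their own reverse complements, were in none of the 6. Over all 32851 promoters of that length, 0.146% held the stricter form and 4.20% the looser one, which includes it. None among 6 is near that background, so nothing is read from it.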

How the data were processed

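Per the labels, libraries were made from total RNA with a stranded mRNA kit. The submitters' processing notes name FastQC, Trimmomatic 0.33 and kallisto 0.43.1, and the builds mm10 and GRCm38. The transcript set behind the tables is not given in the sources used here. The authors' tables hold estimated counts per transcript, not scaled for depth or length, and TPM, scaled by Kallisto for both. Reads shared by similar transcripts are divided by that program.

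Here 113580 of 115270 transcripts (98.5%) were matched by identifier to GENCODE M21, and both values were added up within each of 35580 genes, and the count sums rounded. edgeR 4.0.16 (R 4.3.3; TMM, filterByExpr, robust quasi-likelihood fit, 1 mean for each of 6 groups, 12 libraries) tested 17424 genes, all 10 genes described here among them. P-values were adjusted by Benjamini-Hochberg over all of them, with a call at an adjusted p under 0.05. They measure the spread between libraries that the study calls independent samples. The script was tested on simulated counts with 200 genes changed, for KO against WT at 24 h and for WT at 48 h against 0 h. It recovered 144 of them (72%) in each case, with 13 and 10 false calls. At 2-fold it recovered 65 and 66 genes, and at 4-fold 79 and 78. The alternatives were DESeq2 1.42.0, its size factors in edgeR, no filter, at least 10 counts in every library, average transcript length offsets, limma 3.58.1 on log2(TPM + 1) and log2(TPM + 0.1), a replicate block, and leaving out each of 12 libraries.

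The genes and lists were chosen with earlier results of these data known. Beside the 10 genes, the text names from each list up to 3 genes with the largest change from 0 h to 48 h in WT among those called, any list gene called between genotypes, marker genes, *Cidea*, and the 5 genes most like *Grhl2* whose log2 CPM (prior count 2) averaged 1 or more. *Cldn4* was named after its values were seen. *Enah*, *Ctnnd1*, *Fgfr2* and *Cd44* were listed as known ESRP targets. Replicates differed by 11.04 to 32.4 chi-square units per degree of freedom, so none was a copy of another. The floor of 3 counts was 0.0779 to 0.1035 CPM and covers counting error only.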

Additional observations from a re-analysis of the deposited data

Results flagged for a closer look

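The genotype difference of *Grhl2* changed with time. On the log2 scale the KO to WT difference was higher at 24 h than at 0 h by 1.12, and higher at 48 h than at 0 h by 1.26. This is the pattern by which the gene was picked, so both values are a description without a test. No other of the 10 genes was flagged for such a change, and no group had enough libraries for a search for outlying ones.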

How the results depend on the processing

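Over 20 other settings, 19 of the 29 calls among the 81 tested results of the 9 genes were kept in every one, and no called value changed sign. The results not called in the first place gave 1040 values over these settings. Of these values, 55 had the other sign, and none of the 55 was called there. The number of genes called was 3 in WT from 24 h to 48 h with average transcript length offsets and with limma at either pseudocount, and 3 in KO over that step with limma at either pseudocount. For KO against WT at 48 h it was 1 with DESeq2 size factors, with no filter, with at least 10 counts in every library and with the replicate block, and 0 with length offsets and with limma at either pseudocount. Leaving out 1 library gave 3 to 6 genes in WT and 2 to 5 in KO from 24 h to 48 h, 0 to 1 at 24 h and 0 to 2 at 48 h between genotypes, and 4 to 5 in WT and 4 to 6 in KO from 0 h to 48 h. The cause of these shifts was not tested. Libraries with the same replicate number did not deviate together (correlations of -0.049 to 0.051 over 15 pairs of groups), so the replicate block is given only for its effect on the counts: 6 in WT from 24 h to 48 h and 1 for KO against WT at 48 h.

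For *Grhl2* the KO to WT estimate at 0 h stayed between -1.32 and -1.01, and at 48 h it lay between -0.13 and 0.09. Estimates rest on 2 libraries per group and, for KO, on 1 clone. Depth allowed at least 144 estimated counts per gene and library, so for *Grhl1* and *Esrp2* the spread between libraries, with standard errors of 0.25 to 0.37, was the nearer limit.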
